A study of Mus musculus with 37 samples.

Results

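The transcripts of 10 heat shock and chaperone genes were followed across strains of mice in brown adipose tissue (BAT). The genes were taken by symbol, and each was represented by the probe set of that symbol with the highest mean over the BXD strains. All 10 were found, of 24631 different gene names in a table of 41155 probe sets. By the place where their proteins work, 7 are cytosolic (*Hspa1a*, *Hspa1b*, *Hspa8*, *Hsp90aa1*, *Hsph1*, *Dnajb1* and *Hspb1*), 1 belongs to the endoplasmic reticulum (ER; *Hspa5*) and 2 are mitochondrial (*Hspd1* and *Hspe1*).

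Chaperones bind unfolded proteins and help them to fold. When unfolded proteins build up in the cytosol, the transcription factor HSF1 binds heat shock elements in the promoters of the inducible chaperone genes, whereas the ER and the mitochondria have stress responses of their own that raise *Hspa5*, and *Hspd1* with *Hspe1*. BAT burns fat to make heat in its mitochondria, and HSP90 also holds the aryl hydrocarbon receptor, encoded by *Ahr*, in the cytosol until a ligand binds.

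The arrays came from chow-fed males, housed in groups, of 35 BXD strains and of both parental strains, C57BL/6J and DBA/2J. The paper states an overnight fast before sacrifice for the BXD cohorts. It does not state the origin or the fasting of the parental mice on these arrays. The BXD strains are recombinant inbred lines derived from these parents, so each carries its own fixed mixture of their alleles. Age at sacrifice was 29 weeks per the labels. RNA of about 5 mice per strain was pooled in equal parts and hybridised to 1 Affymetrix MoGene 2.0 array, so a value is a strain average with no replicate, and the spread between strains holds genetic, environmental and technical differences that cannot be told apart.

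Levels are given in the units of the deposited table, in which every array has by construction a mean of 8 and an SD of 2. The log base behind them is not given in the sources used here, so no fold changes are stated. All 10 genes of the brown fat list were above background in the mean, where background is the 95th percentile of 1128 olfactory receptor probe sets (7.94 units). Transcripts of skeletal muscle were also present, with a mean of the 10 muscle genes from 10.11 in BXD65 to 13.82 in BXD97. The mean of 8 liver genes, below background in the median strain, was 12.56 in BXD70 and 10.53 in DBA/2J. In a bulk tissue, a higher share of a cell type and more RNA per cell cannot be told apart.

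Promoter sequence was held for 8 of the 10 genes in the RefSeq set of GRCm38.p6, in windows from 250 bases before to 50 after each transcript start. These sequences are shown because the promoters differ in the stress elements that they hold. For the inducible Hsp70 pair, *Hspa1a* and *Hspa1b*, the 150 bases before the start follow, at chr17:34972157-34972306 and chr17:34959239-34959388 on the minus strand, with a heat shock element of 2 units (GAANNTTC or TTCNNGAA) in capitals.
Hspa1a: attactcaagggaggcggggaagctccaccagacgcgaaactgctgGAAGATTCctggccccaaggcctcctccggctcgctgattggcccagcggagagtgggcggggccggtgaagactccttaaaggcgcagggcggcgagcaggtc
Hspa1b: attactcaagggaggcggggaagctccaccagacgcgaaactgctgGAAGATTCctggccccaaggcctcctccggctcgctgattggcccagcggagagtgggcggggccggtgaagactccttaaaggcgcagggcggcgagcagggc
These 150 bases differ at 1 position, and over 250 bases 247 are equal (98.8%). Both genes start 12918 bases apart on chromosome 17. Searched on both strands, an element of 2 units was found in 15.1% of all 32851 windows and in 6 of the 8 genes, so it is common. *Dnajb1* and *Hspa5* had no match in these windows.

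For *Hspa5*, 150 bases before the start, at chr2:34771940-34772089 on the plus strand, follow with the ER stress response element (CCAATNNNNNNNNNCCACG) in capitals. For *Hspd1* and *Hspe1*, which are transcribed away from each other, 28 bases between the start of *Hspe1* and 1 of the annotated starts of *Hspd1* follow, at chr1:55088054-55088081 on the plus strand, with a heat shock element of 4 units in capitals.
Hspa5: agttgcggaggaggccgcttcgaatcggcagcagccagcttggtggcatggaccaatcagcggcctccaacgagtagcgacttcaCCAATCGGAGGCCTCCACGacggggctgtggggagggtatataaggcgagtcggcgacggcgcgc
Hspd1 and Hspe1: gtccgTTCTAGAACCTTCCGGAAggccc
The ER element was found in 0.119% of all windows, searched on both strands, and in 1 of the 8 genes. An element of 4 units (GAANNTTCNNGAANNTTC or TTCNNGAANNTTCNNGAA) was found in 0.0244% of windows, 8 in number, and 2 of these are the windows of *Hspd1* and *Hspe1*, which overlap. With 3 units (GAANNTTCNNGAA or TTCNNGAANNTTC) the share was 0.603%, and *Hsph1* held a match beside this pair. Each longer element includes the shorter ones. A match describes the letters and not a bound site.

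The inducible Hsp70 pair varied most across the strains, whereas *Hspa5*, *Hspd1* and the probe set used for *Hspa8* varied less than most transcripts above background. *Hspa1a*, an Hsp70 with low expression until cells are stressed, ran from 8.76 in BXD103 through a median of 9.95 to 11.86 in BXD49. The level of *Hspa1b*, the neighbouring copy, ran from 8.50 in BXD75 through 10.02 to 11.67 in BXD49. The SD of *Hspa1a* over strains (0.80) was larger than that of 98.8% of the 19436 probe sets above background, and that of *Hspa1b* (0.86) larger than that of 99.0%. BXD49 and BXD51 had the highest levels of both transcripts. Their coding sequences are nearly identical, so how far the probe sets measure them separately is uncertain, although *Hspa1b* minus *Hspa1a* still ranged from -1.01 in BXD75 to 1.22 in BXD95 (SD 0.38).

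*Hsph1*, an Hsp110 that recharges Hsp70 by exchanging its nucleotide, ran from 8.49 in BXD81 through 9.35 to 10.04 in BXD80 (SD 0.40). *Hspb1*, the small heat shock protein HSP27 that holds unfolded proteins, ran from 10.26 in BXD75 through 10.78 to 11.55 in BXD56 (SD 0.36). *Hsp90aa1*, the inducible cytosolic HSP90, ran from 9.23 in BXD83 through 9.92 to 10.49 in BXD51 (SD 0.29). These SDs lay above those of 90.5%, 86.7% and 76.8% of probe sets above background. The highest strain lay within 0.13 units of the next for each of these 3 genes.

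*Dnajb1*, an HSP40 that hands substrates to Hsp70, ran from 8.98 in BXD70 through 9.33 to 9.85 in BXD51 (SD 0.22). *Hspa8*, the Hsp70 present in cells at all times, ran from 13.79 in BXD103 through 14.07 to 14.34 in BXD96 (SD 0.14). Its SD exceeded that of 17.1% of probe sets above background, so the probe set used varied less between strains than most, while the inducible pair varied more. The table held 4 probe sets named *Hspa8*, and the others correlated with the one used at 0.51, 0.51 and -0.02. Their SDs were 0.22, 0.23 and 0.60, each above the median of 0.19 for probe sets above background. The low spread of *Hspa8* thus rests on the choice of probe set.

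*Hspa5*, the ER Hsp70 known as BiP, ran from 9.61 in BXD56 through 10.03 to 10.18 in BXD51 (SD 0.13). *Hspd1*, the mitochondrial folding chamber HSP60, ran from 12.79 in BXD83 through 13.02 to 13.49 in BXD95 (SD 0.15). The next strain below BXD95 was BXD89 at 13.24, so BXD95 stood apart for *Hspd1*. *Hspe1*, the HSP10 lid of that chamber, ran from 9.17 in BXD69 through 9.55 to a highest value 0.82 units above the lowest, in BXD43 (SD 0.20). The SDs of *Hspa5*, *Hspd1* and *Hspe1* exceeded those of 13.7%, 22.3% and 54.1% of probe sets above background.

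**Figure D1:**
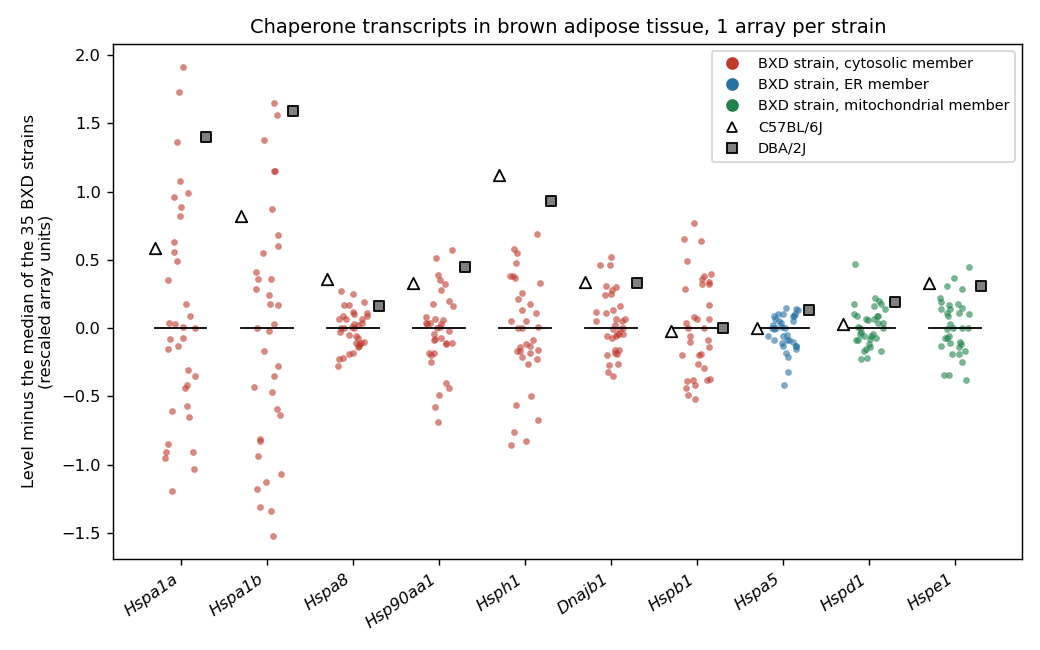
The level of each of the 10 transcripts minus its own median over the 35 BXD strains, in rescaled array units, with 1 circle per BXD strain coloured by compartment, a triangle for C57BL/6J and a square for DBA/2J. *Hspa1a* and *Hspa1b* spread over 3.10 and 3.17 units, *Hspa5* over 0.57 units, and both parents lie above every BXD strain for *Hsph1*.

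A range of at least 1 unit was found for 5 of the 10 genes, *Hspa1a*, *Hspa1b*, *Hsp90aa1*, *Hsph1* and *Hspb1*, all of them cytosolic. Among all probe sets, 40.7% had such a range, so this count is near the background, and the median range of the 10 (1.06 units) stood beside 0.90 units over all probe sets.

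The parents differed by at least 0.5 units for 2 of the 10 genes, against 13% of all probe sets, with 1 array each and no test. *Hspa1a* was 10.54 in C57BL/6J and 11.35 in DBA/2J, and *Hspa1b* was 10.84 and 11.61. Of the BXD strains, 26 lay below both parents for *Hspa1a* and 29 for *Hspa1b*. Both parental arrays gave nearly equal levels of *Dnajb1* (9.67 and 9.66), *Hspb1* (10.76 and 10.78) and *Hspe1* (9.88 and 9.86).

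For *Hsph1* both parents, at 10.47 in C57BL/6J and 10.28 in DBA/2J, lay above all 35 BXD strains. Such a position was found for 1 of the 10 genes and for 0.109% of all probe sets. In 9 of the 10 genes, counted after the levels were seen, both parents lay above the median of the BXD strains (all but *Hspb1*), against 26.8% of all probe sets. The genes share the same 2 arrays and are not independent. C57BL/6J was near the median for *Hspa5* and *Hspd1*, with 17 and 16 BXD strains above it. In a limma comparison of the 2 parental arrays with the 35 BXD arrays, made after these levels were seen, *Hsph1* was 1.06 units higher in the parents (SE 0.28, adjusted p = 0.53). No member passed in this fit, nor did any probe set (0% of 41155), although 2109 had an unadjusted p under 0.05. Of 25 other cytosolic genes, the 2 with the largest excess in the parents, picked by value, were *Dnaja1* and *Chordc1*. *Dnaja1*, an HSP40, averaged 10.53 in the parents and 10.01 in the BXD strains, and *Chordc1*, an HSP90 cofactor, 10.95 and 10.40 (adjusted p = 0.53 and 0.706). Others were lower in the parents, *Cct2* and *Dnajb6* by 0.19 units and *Hspa2*, *Hsf2* and *Dnajb4* by 0.05 or less.

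Pairs of cytosolic transcripts had the higher correlations across strains. The 21 pairs of cytosolic members had a median Pearson's r of 0.44, the 7 pairs of a cytosolic member with *Hspa5* 0.26, and the 14 pairs of a cytosolic with a mitochondrial member 0.18. For each member against every other probe set the median r was 0.008, and r reached at least 0.4 in 1.97% of these relations, whereas it did so in 15 of the 45 pairs of members. The pairs share genes and arrays and are not independent, so these medians carry no test. *Hspa1a* and *Hspa1b*, whose separate measurement is uncertain, both enter these medians and counts. Beside the 45 pairs, 1200 relations of members with listed genes and *Ahr* and 110 with list means were computed, and the permutation p-values given are not adjusted for their number.

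**Figure D2:**
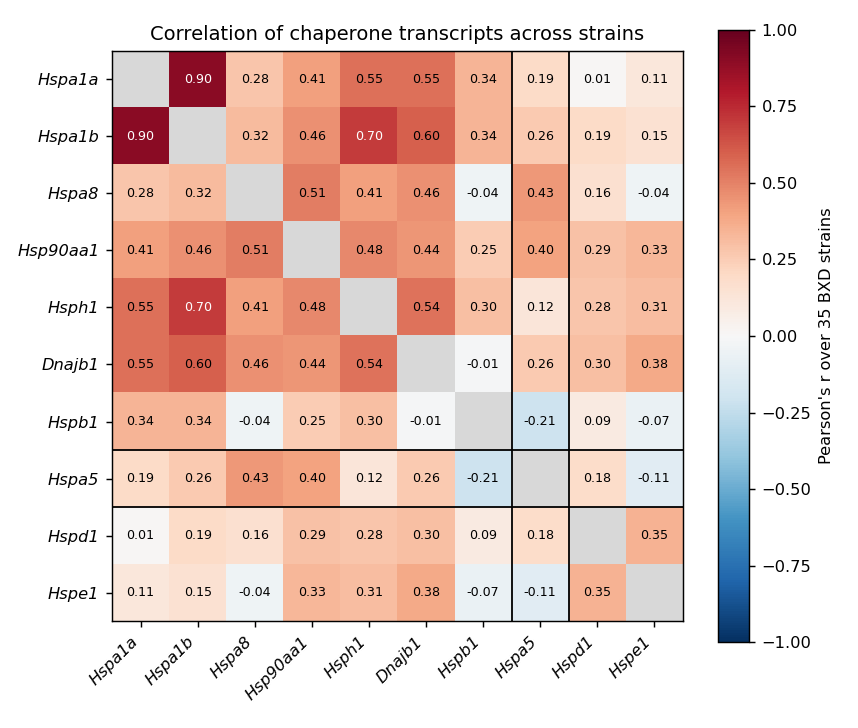
Pearson's r over the 35 BXD strains for each of the 45 pairs, from blue (negative) to red (positive), with lines between the cytosolic, ER and mitochondrial members. The highest values, 0.90 and 0.70, are those of *Hspa1b* with *Hspa1a* and with *Hsph1*, and the lowest, -0.21, is that of *Hspb1* with *Hspa5*.

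Each member was used in turn as a continuous covariate in limma for all other probe sets, with Benjamini-Hochberg adjustment over 41154 of them. Of the 45 pairs, 2 passed an adjusted p of 0.05 in both directions. For 1 of these, *Hspa1a* with *Hspa1b*, separate measurement is uncertain, as stated above, so r may partly hold shared probe signal. That part was not tested. *Hspa1a* and *Hspa1b* rose together (r = 0.90, rho = 0.89, permutation p = 1e-05 for each, the smallest that 100000 permutations can give; adjusted p = 1.29e-09 and 1.21e-09). *Hspa1b* rose with *Hsph1* (r = 0.70, rho = 0.66, permutation p = 1e-05 and 2e-05; adjusted p = 0.018 and 0.0162). Without the 2 strains farthest from the median of *Hspa1b* the latter r was 0.64, and it lay between 0.66 and 0.72 with any 1 strain left out. The adjusted p of this pair rose above 0.05 when BXD49, BXD50, BXD51, BXD55, BXD75 or BXD81 was left out, when the 2 farthest strains were left out and when ranks were used.

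**Figure D3:**
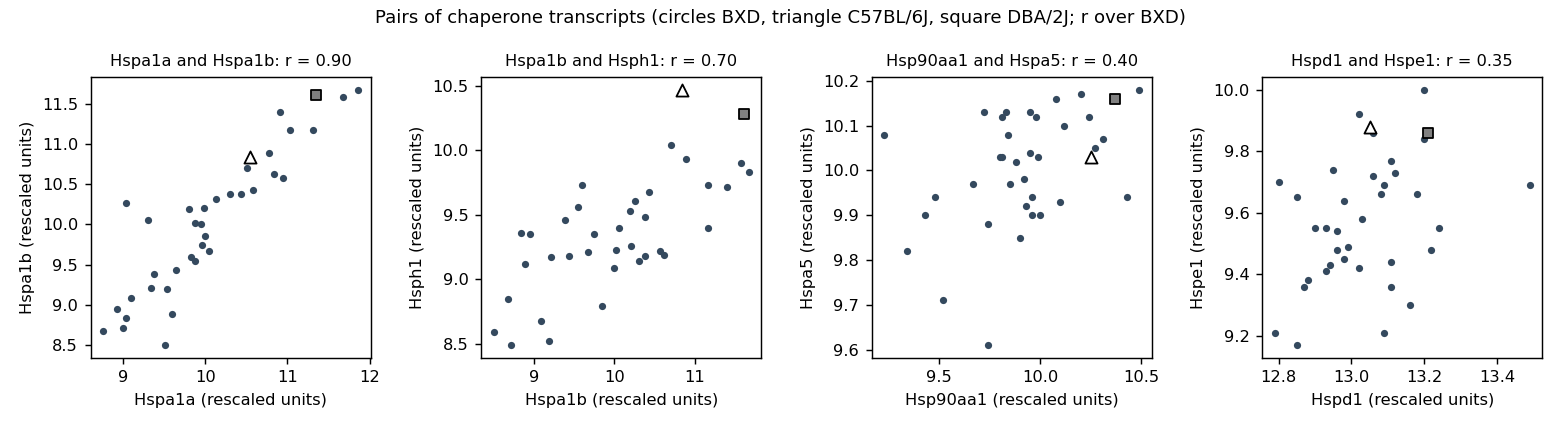
Levels in rescaled units of 4 pairs of transcripts, with 1 circle per BXD strain, a triangle for C57BL/6J and a square for DBA/2J; r is over the 35 BXD strains. The points follow a line for *Hspa1a* and *Hspa1b* (r = 0.90), while *Hspd1* and *Hspe1* scatter widely (r = 0.35).

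As covariate, *Hspa1a* gave 2 probe sets past the threshold (0.00486%), *Hspa1b* and the other *Hspa1a* probe set. The latter was dim, with a mean of 7.23, and above background in 1 of the 35 strains. *Hspa1b* gave 4 (0.00972%), both *Hspa1a* probe sets, *Hsph1* and *P4ha1*. *Hsph1* gave 3 (0.00729%), *P4ha1*, *Hspa1b* and *Chordc1*. Every one of these slopes was positive. The count of *Hspa1b* was 2 without BXD75 or BXD81. That of *Hsph1* was 1, *P4ha1*, with ranks and without BXD50, BXD55, BXD75 or BXD81, and 2 without BXD49, BXD51 or BXD79.

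*P4ha1*, which encodes a subunit of the collagen prolyl 4-hydroxylase of the ER, was the transcript outside the members that was most like *Hsph1* (r = 0.81, rho = 0.81, permutation p = 1e-05 for each; adjusted p = 9.19e-05). It ran from 9.60 in BXD83 through 10.21 to 10.68 in BXD43, and was 10.69 in C57BL/6J and 10.76 in DBA/2J, just above the highest BXD strain. With any 1 strain left out its r with *Hsph1* lay between 0.79 and 0.83. *Chordc1* followed (r = 0.72, rho = 0.64; adjusted p = 0.018). Its adjusted p rose above 0.05 when BXD50, BXD55, BXD75, BXD79 or BXD81 was left out, up to 0.237 without BXD79, and was 0.428 with ranks and 0.749 without the 2 farthest strains. Next came *Stip1*, the HOP protein that links Hsp70 to HSP90 (r = 0.67, rho = 0.55; adjusted p = 0.138). *P4ha1* and *Chordc1* were also the transcripts outside the members that were most like *Hspa1b*, at r = 0.71 and 0.60 (adjusted p = 0.0159 and 0.444).

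The other cytosolic pairs did not pass. *Dnajb1* had r = 0.55 with *Hspa1a*, 0.60 with *Hspa1b* and 0.54 with *Hsph1*, with permutation p of 0.00062, 0.00019 and 0.00083 and adjusted p from 0.332 to 1. *Hsp90aa1* had r = 0.51 with *Hspa8* (rho = 0.45, permutation p = 0.00163 and 0.00609; adjusted p = 0.385 and 0.0838). *Hspb1* was the least tied to the rest, at -0.04 with *Hspa8* and -0.01 with *Dnajb1*. Of the 21 cytosolic pairs, 15 had an unadjusted permutation p under 0.05. So did 2 of the 7 pairs with *Hspa5*, 1 of the 14 cytosolic with mitochondrial pairs, and the 1 mitochondrial pair. Over all probe sets, positive slopes at an unadjusted limma p under 0.05 ran from 1.77% with *Hsph1* to 9.09% with *Hspa8* among the cytosolic members.

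**Figure D4:**
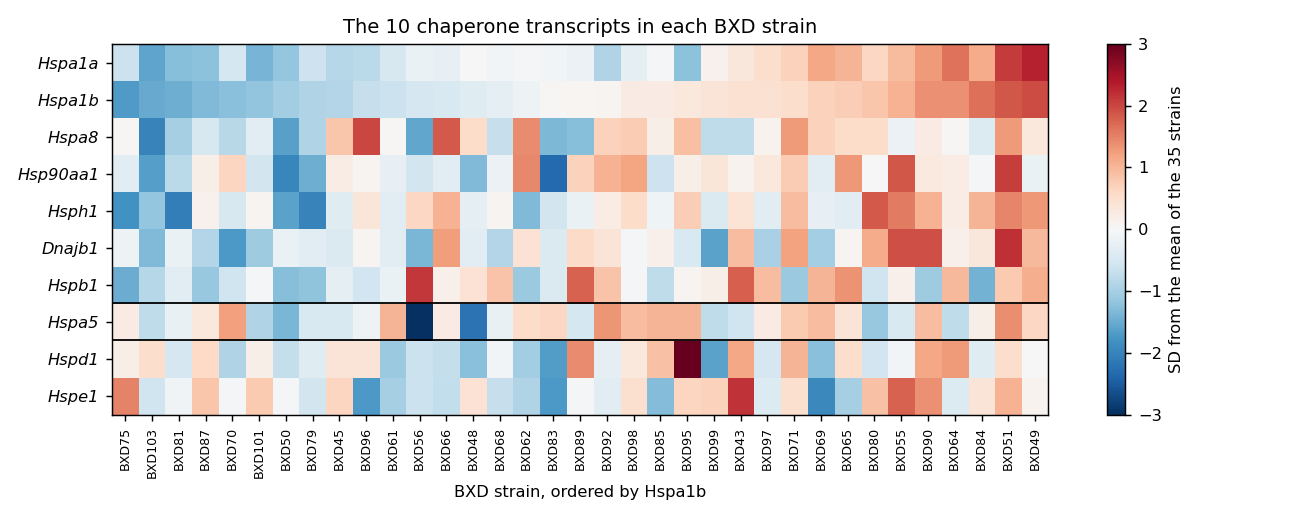
Each transcript in each BXD strain as the number of SDs from its mean over the 35 strains, with strains ordered by *Hspa1b* from low (left) to high (right) and lines between the compartments. *Hspa1a* follows the order, *Hsph1* and *Dnajb1* do so in part, and *Hspa5*, *Hspd1* and *Hspe1* show no such gradient.

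BXD51 and BXD103, picked after the levels were seen, lay at opposite ends for most cytosolic transcripts. BXD51 was among the 5 highest strains for 8 of the 10 genes and had the highest *Hsp90aa1* (10.49), *Dnajb1* (9.85) and *Hspa5* (10.18). BXD103 was among the 5 lowest for 5 genes, all cytosolic, and had the lowest *Hspa1a* and *Hspa8*. BXD50 was also among the 5 lowest for 5 genes, 4 of them cytosolic. All 7 cytosolic transcripts lay above their median in BXD51, and none did in BXD50, BXD61, BXD75, BXD79, BXD81, BXD83, BXD101 and BXD103. *Hspa1a* and *Hspa1b* both enter these counts. The same counts were not made over all probe sets, so whether these arrays are extreme in general was not tested.

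Immediate early genes respond within minutes to handling and other stimuli. The r of *Hspa1a* with the mean of 10 such genes was 0.45 (rho = 0.45, permutation p = 0.00637 and 0.0069; 0.44 without the 2 farthest strains), and all 10 had a positive r, up to 0.60 for *Jun*. With *Hspa1b* all 10 were positive as well, with a median r of 0.17. The pair was not alone in this, since all 10 were also positive with *Hspb1* (median 0.25) and 9 with *Hspa5* (median 0.17). None passed the adjusted threshold. With that mean as a covariate, both pairs of the inducible genes passed as before, and r of *Hspa1b* with *Hsph1* was 0.74. *Bag3*, a cofactor of Hsp70 that is itself induced by heat, was the transcript outside the members that was most like *Hspa1a* (r = 0.61, rho = 0.57, permutation p = 0.00012 and 0.0005; adjusted p = 0.746).

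*Hspa8* gave the longest list as a covariate, with 187 probe sets past the threshold (0.454%), of which 77 rose and 110 fell with it, and no other member was among them. The most alike were *Srsf2* (r = 0.72, rho = 0.73), a splicing factor, *Rin1* (r = 0.72, rho = 0.67), a regulator of Rab5, and *Hnrnpu* (r = 0.70, rho = 0.67), an RNA-binding protein, with adjusted p of 0.0165, 0.0165 and 0.0215. *Hspa8* also had r = 0.47 with the first principal component of all probe sets, and with that component as a covariate the count was 0. The mean of 8 lymphocyte genes, 6 of them below background, had r = 0.40 with *Hspa8* (rho = 0.43, permutation p = 0.0177 and 0.00962), and its part was not tested. No member reached a permutation p of 0.05 with the mean of the blood list. With any 1 strain left out the count for *Hspa8* ran from 30 (without BXD62) to 568 (without BXD50).

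*Ahr* had a positive relation with *Hspa8* (r = 0.52, rho = 0.47, permutation p = 0.00116 and 0.00513, limma adjusted p = 0.0707). Without the 2 farthest strains r was 0.54. Of 41154 probe sets, 6676 had an unadjusted limma p under 0.05 with *Hspa8*, the most for any member. With *Hsp90aa1*, the chaperone that binds the product of *Ahr*, the r of *Ahr* was 0.01 and rho 0.00. *Hspb1* had r = -0.40 with *Ahr* (rho = -0.36, adjusted p = 0.725). For the other members r with *Ahr* ran from -0.19 for *Hspe1* to 0.32 for *Hspa5*.

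*Hsp90aa1* and *Dnajb1* each gave 0 probe sets past the threshold (0%), although 3645 and 3347 had an unadjusted p under 0.05, and for *Dnajb1* 1 passed without BXD92. Among the genes most like *Hsp90aa1* were *Clstn3* (r = 0.66, rho = 0.50), which encodes a membrane protein of the cadherin family, and *Ly6g6f* (r = 0.62, rho = 0.46), with an adjusted p of 0.223 for each. With the mean of the brown fat list *Hsp90aa1* also had a positive relation (r = 0.49, rho = 0.47, permutation p = 0.00271 and 0.00443). Within that list its r was 0.60 with *Ppargc1a*, the coactivator of mitochondrial biogenesis, 0.52 with *Dio2*, the deiodinase that makes active thyroid hormone, and 0.49 with *Ucp1*, the uncoupling protein of BAT (adjusted p = 0.258, 0.351 and 0.377). *Dnajb1* was most like *1700037C18Rik*, *Atp6v0d1*, a subunit of the proton pump of lysosomes, and *Tbc1d20* (r = 0.61, 0.60 and 0.60; adjusted p = 0.373 for each).

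*Hspb1* gave 2 probe sets (0.00486%), its own second probe set (r = 0.72) and 1 without a gene name below background. This count was 0 with the mean of probe sets and when BXD43, BXD49, BXD50, BXD65, BXD69, BXD71, BXD75, BXD79, BXD80, BXD90, BXD92 or BXD103 was left out. It was 1 without BXD89 and 4 without BXD87 or BXD97. *Med27*, a subunit of the Mediator complex, was the gene most like it (r = 0.72, rho = 0.77; adjusted p = 0.0535), then *Prmt5*, an arginine methyltransferase (r = 0.65), and *Ap2m1*, a subunit of the clathrin adaptor AP2 (r = 0.64). From the cytosolic list, *Hspa4l* (r = 0.61), *Stip1* (0.58) and *Cct2* (0.53) were highest, with adjusted p of 0.264, 0.308 and 0.411.

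*Hspa5* gave 0 probe sets past the threshold (0%), with 3578 at an unadjusted p under 0.05, and 2 passed without BXD49 or BXD64 and 1 without BXD50, BXD70, BXD90, BXD95, BXD98 or BXD103. Its highest r among members was with *Hspa8* (r = 0.43, rho = 0.46, permutation p = 0.00887 and 0.00536; adjusted p = 0.434 and 0.191) and with *Hsp90aa1* (0.40), and it had r = 0.18 with *Hspd1* and -0.11 with *Hspe1*. The gene most like it was *Dio2* (r = 0.62, rho = 0.71, permutation p = 8e-05 and 4e-05; adjusted p = 0.178), then *Ammecr1l* and *Gm5326* (r = 0.62 and 0.61). *Dio2* ran from 8.17 in BXD103 through 9.92 to 11.42 in BXD70. The array of BXD70 also held liver transcripts, and *Hspa5* had a positive relation with the mean of the liver list (r = 0.34, rho = 0.63, permutation p = 0.0485 and 7e-05; r = 0.40 without BXD70). Of that list, 5 of 8 genes were below background, and its part in the level of *Hspa5* was not tested.

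*Hspd1* and *Hspe1*, whose starts flank the element shown above, had r = 0.35 (rho = 0.34, permutation p = 0.0381 and 0.0438; adjusted p = 0.447 and 0.437). Without the 2 strains farthest from the median of *Hspd1* the r of this pair was 0.28. Of the 9 other members this was the highest r for *Hspd1*, and the relation did not pass. For *Hspe1* the highest was that with the cytosolic *Dnajb1* (r = 0.38, rho = 0.28, permutation p = 0.0252 and 0.109), which did not pass either.

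*Hspd1* gave 13 probe sets past the threshold (0.0316%), 6 rising and 7 falling with it. The genes most like it were *Grsf1* (r = 0.73, rho = 0.69), which encodes a protein of mitochondrial RNA granules, *Rgs7* (0.73, rho = 0.68), a regulator of G protein signalling, and *Fam96a* (0.70, rho = 0.65), a cytosolic iron-sulphur assembly factor, with adjusted p of 0.00796, 0.00624 and 0.00804. All 3 were highest in BXD95, as was *Hspd1*. Without BXD95 no probe set passed, and without BXD43 247 did.

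Markers of skeletal muscle and of macrophages ran against *Hspd1*. All 10 skeletal muscle genes had a negative r, from -0.55 for *Ckm* to -0.47 for *Tnnt3*, and the mean of that list had r = -0.51 (rho = -0.45, permutation p = 0.0019 and 0.00769; -0.35 without the 2 farthest strains). All 6 macrophage genes were negative as well, down to -0.63 for *C1qa* (adjusted p = 0.059), and their mean had r = -0.43 (rho = -0.38, permutation p = 0.0116 and 0.0245). The means of the lymphocyte, blood and liver lists had r = 0.11, 0.04 and -0.14 with *Hspd1*, with a permutation p of 0.417 or higher. Within the cytosolic list, *Cryab* and *Hspb6*, small heat shock proteins abundant in muscle, had r = -0.58 and -0.55. The part of these cells in the level of *Hspd1* was not tested.

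*Hspe1* gave 12 probe sets (0.0292%), 6 in each direction. The most alike were *Cdadc1* (r = 0.75, rho = 0.76; adjusted p = 0.0157), *Qdpr*, which regenerates tetrahydrobiopterin (r = 0.70, rho = 0.70; adjusted p = 0.027), and *Tmem33* (r = 0.70, rho = 0.68; adjusted p = 0.0342). Among those that fell with it was *Lep*, the adipokine leptin (r = -0.65, adjusted p = 0.0382), with *Vwf* and *Cd93* of endothelial cells (r = -0.73 and -0.65, adjusted p = 0.0329 and 0.0442), named after their values were seen. Immediate early genes went against *Hspe1*, with 9 of 10 negative and r = -0.45 for their mean (rho = -0.47, permutation p = 0.0062 and 0.00485), down to -0.55 for *Fos*. The macrophage list was negative in 6 of 6 genes (mean, r = -0.46, rho = -0.52, permutation p = 0.0052 and 0.00179). With the immediate early mean as a covariate no probe set passed, and with any 1 strain left out 4 to 209 did.

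Other genes of the 3 chaperone systems were compared with 1 member of each, *Hsp90aa1*, *Hspa5* and *Hspd1*. No gene passed, of 25 cytosolic genes with *Hsp90aa1*, of 20 ER genes with *Hspa5* or of 16 mitochondrial genes with *Hspd1*. With *Hsp90aa1*, 16 of the 25 cytosolic genes had a positive r and the median was 0.18. The highest were *Dnaja1* (r = 0.55), *Chordc1* (0.54) and *Cct2*, a subunit of the CCT folding ring (0.49), with adjusted p of 0.351, 0.351 and 0.385. This median was not particular to a cytosolic member. The same list had a median r of 0.22 with *Hspe1* (18 of 25 positive), 0.16 with *Hspd1* (14) and -0.07 with *Hspa5* (10).

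With *Hspa5*, 14 of the 20 ER genes had a positive r and the median was 0.14. The lectin chaperones *Calr* (r = 0.45) and *Canx* (0.44), the disulphide isomerase *Pdia3* (0.41), the nucleotide exchange factor *Hyou1* (0.40) and *Atf6*, a sensor of ER stress (0.39), led this list, with adjusted p from 0.421 to 0.567.

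With *Hspd1*, all 16 mitochondrial genes had a positive r and the median was 0.28, where the median over all probe sets was near 0. *Yme1l1*, a protease of the inner membrane, was highest (r = 0.60, rho = 0.45, permutation p = 0.00023 and 0.00784; adjusted p = 0.101), then *Dnajc19* of the import motor (0.46), *Afg3l2*, a second inner membrane protease (0.44), and *Dnaja3*, the mitochondrial HSP40 (0.44). With *Hspe1*, 14 of 16 were positive, and *Grpel2*, a nucleotide exchange factor of mitochondrial Hsp70, was highest (r = 0.55). The mean of the mitochondrial list had r = 0.54 with *Hspd1* (rho = 0.57), and 0.41, 0.38 and 0.45 with the muscle, macrophage or immediate early mean removed by regression. With *Hspe1* its r was 0.49 (rho = 0.49), and 0.50, 0.27 and 0.31 after the same steps. For the mean of the cytosolic list with *Hsp90aa1* r was 0.24, and 0.50, 0.24 and 0.24. For the mean of the ER list with *Hspa5* r was 0.33, and 0.34, 0.28 and 0.31. Removing the muscle mean thus raised the r of *Hsp90aa1* with its list and lowered that of *Hspd1* with its own. The rise was not particular to *Hsp90aa1*. The r of the cytosolic mean also rose with *Hspe1* (0.23 to 0.40), *Hspd1* (-0.19 to 0.25) and *Hspa5* (-0.30 to -0.16). No test of these changes was made.

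**Figure D5:**
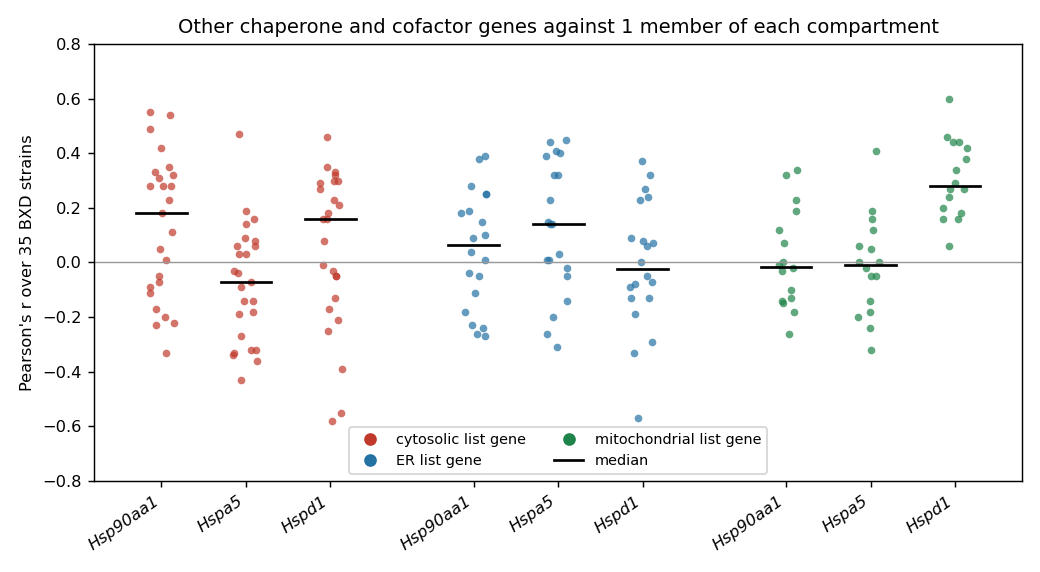
Pearson's r over the 35 BXD strains of each gene of the cytosolic (25 genes), ER (20) and mitochondrial (16) lists with *Hsp90aa1*, *Hspa5* and *Hspd1*, 1 point per gene and a bar at the median. The mitochondrial genes lie above 0 with *Hspd1* (median 0.28) and on both sides of 0 with the other members.

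To ask whether a list followed the member of its own compartment rather than another, all 3 members were entered in 1 limma fit, each scaled to an SD of 1. For *Hsp90aa1* 0% of 41152 probe sets passed, for *Hspa5* 0.00243% and for *Hspd1* 0.0535%, and no list gene was among them. No probe set passed in any of the 3 differences between slopes (0%), with 3166 to 4406 at an unadjusted p under 0.05. In the same fit 7 of 25 cytosolic genes had a positive slope on *Hsp90aa1*, 3 of 20 ER genes on *Hspa5* and 6 of 16 mitochondrial genes on *Hspd1* at an unadjusted p under 0.05, with median slopes of 0.040, 0.019 and 0.042 units per SD. Over all probe sets, such positive slopes were found for 4.24% on *Hsp90aa1*, 4.1% on *Hspa5* and 5.81% on *Hspd1*. Of the cytosolic genes, 1 had a positive and 6 a negative slope on *Hspa5* at that level, and 2 a positive and 4 a negative slope on *Hspd1*. The shares of negative slopes over all probe sets were 4.54% on *Hspa5* and 4.96% on *Hspd1*. A difference between the compartments was thus not detected for single genes with 35 arrays.

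With *Hsph1* as covariate, 10 of the 25 cytosolic genes had a positive slope at an unadjusted limma p under 0.05, against 1.77% of all probe sets. *Chordc1* was the 1 gene of the list that passed after adjustment, a call lost in the settings named above. With *Hspb1* 8 of the 25 were at that level (3.36% of all probe sets), with *Hspa1b* 6 (2.07%), with *Hsp90aa1* 5 (4.92%) and with *Hspa1a* 4 (2.38%). With *Dnajb1* 3 were (4.88%), and with *Hspa8* 2 were, a share near the 9.09% of all probe sets. Of the members outside the cytosol, *Hspe1* had 4 (5.76%), as many as *Hspa1a*, *Hspd1* had 2 (5.42%) and *Hspa5* had 1 (4.08%). The members were not tested against each other in these counts. In the cold response, *Cirbp*, an RNA-binding protein induced when cells cool, had r = -0.47 with *Hspa8*, -0.39 with *Hsph1* and -0.35 with *Hspa1b* and *Hspb1*, with adjusted p of 0.126 and higher.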

How the data were processed

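RNA of brown adipose tissue from about 5 mice per strain was pooled and measured on 1 array for each of 37 strains. The authors deposited 1 table of 41345 probe sets, whose values are scores: per array, the authors set the mean to 8 and the SD to 2. Affymetrix Expression Console is named in the submitters' processing notes, while the summary method, the background correction, the log base and the genome build are not given in the sources used here. Although designed with log2 values in mind, the tests were run on these scores unchanged. After 190 array controls were left out, 41155 probe sets remained, and a gene name was given for 28364. Precision is limited by background signal and by how few arrays there are, since arrays carry no read depth.

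Each member was fitted as a continuous covariate over the 35 BXD strains with limma 3.58.1 (lmFit and eBayes) in R 4.3.3, two-sided, with Benjamini-Hochberg adjustment over all probe sets. A pair passed where both of its fits gave an adjusted p under 0.05. The joint fit held *Hsp90aa1*, *Hspa5* and *Hspd1*. Pearson's r and Spearman's rho were computed with 100000 permutations in Python 3.11.15 with scipy 1.17.1, numpy 2.4.6 and pandas 2.3.3, and figures were drawn with matplotlib 3.10.9. Before use, the limma fit was checked on simulated arrays. The parents, with 1 array each, entered no fit other than their comparison with the BXD strains and 1 alternative. Genes named are the members, the genes of the lists, *Ahr* and, for each member, the 3 genes above background with the highest r, where the probe set with the highest mean stands for a gene; 1 of these genes is not reported here. Of 26 cytosolic list genes 25 were found, as were all 20 ER and 16 mitochondrial ones, 1 of 2 cold response genes and 5 of 6 blood genes. The members and lists were chosen with earlier results of these data known. Alternatives covered the normalization, covariates, several probe sets per gene, dim probe sets, ranks, the threshold and strains left out.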

Additional observations from a re-analysis of the deposited data

How the results depend on the processing

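The number of member pairs past the threshold, 2, was 1 with ranks of the anchor, without the 2 farthest strains and at an adjusted p of 0.01, and ran from 1 to 2 with any 1 strain left out. The pair of *Hspa1a* and *Hspa1b*, whose separate measurement is uncertain, passed under each of these. With quantile normalization, median centring, the muscle, immediate early or first principal component covariate, the mean of probe sets, dim probe sets or BXD70 left out, and both parents included, the count was 2. The count of mitochondrial list genes past the threshold with *Hspd1*, 0, was 1 without dim probe sets. List genes past the threshold in the joint fit, 0, were 1 with arrays centred on the median and 1 without dim probe sets, and ran from 0 to 1 with any 1 strain left out (1 without BXD83, BXD87 or BXD99). That gene was *Yme1l1* each time, and the cause was not tested. Members with a parental difference, 2 in number, fell to 0 at 1 unit. The counts of list genes past the threshold with *Hsp90aa1* (also with *Hspa8* in its place) and with *Hspa5*, and of genes steeper on their own member, were 0 under each alternative run. Members with a range of at least 1 unit numbered 4 with the mean of probe sets and 5 otherwise. Of 450 pair correlations under single alternatives, 448 kept their side of the threshold, 2 lost it (*Hspa1b* with *Hsph1*, as above) and 15 had the other sign, none of them of a pair with an unadjusted permutation p under 0.05. The immediate early covariate and the parental comparison were added once the values had been seen. No paired analysis was possible because each strain has 1 array and no replicate numbers.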
